A study of Mus musculus with 6 samples.

Results

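A small population of PU.1-sorted hippocampal nuclei held the message of the MHC class II genes without the Lpl programme of disease-associated microglia. A nucleus was a member when it had at least 200 detected genes, at most 5% mitochondrial unique molecular identifiers (UMIs), and at least 3 UMIs summed over H2-Aa, H2-Ab1, H2-Eb1, Cd74, Ciita and Ccr2. It also needed 0 UMIs over Lpl, Itgax and Gpnmb, and under 2 UMIs over the border-associated macrophage genes F13a1, Mrc1, Cd163, Cd209f and Cbr2. The rule took 441 of the 31738 nuclei that passed the filters. These 14 genes chose the nuclei, so their own levels are given as a description and were not tested.

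The nuclei came from the hippocampi of mice 9.5 months old, in 6 libraries with 1 library per genotype, each a pool of 3 mice. The tau genotypes were P301S with human APOE4 and no TREM2 (P301S/E4/TREM2-), the same with TREM2 (P301S/E4/TREM2+), and tau P301S without Apoe, lacking TREM2 (P301S/EKO/TREM2-) or keeping it (P301S/EKO/TREM2+). Mice with APOE4 and no tau transgene (E4/TREM2- and E4/TREM2+) completed the set, and every group carried either human APOE4 or no Apoe. The labels give neither the promoter of the tau transgene nor the sex of the mice, and they call the sorted nuclei microglia. The deposited matrices held 33335 nuclei and 29794968 UMIs, and the library totals lay between 3351882 and 8717000 UMIs. No mouse can be told from another within a pool, so no p-value below measures the spread between mice of a genotype. Tests between classes of nuclei rest on how the class difference varied between these libraries. Tests of genotype rest on libraries of unlike genotype. In the genotype fit and in members against class II-negative nuclei, the spread was shared over genes and is not each gene's own. All intervals on shares cover counting error only.

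MHC class II molecules show peptides from engulfed material to CD4+ T cells. H2-Aa, H2-Ab1 and H2-Eb1 encode chains of the class II molecules, Cd74 the invariant chain that fills their groove before loading, and Ciita the transactivator that switches the set on. Ccr2 is the chemokine receptor with which classical monocytes enter tissue. In the healthy brain most parenchymal microglia show little class II, whereas macrophages at the borders, dendritic cells and B cells carry more. PU.1, the factor used for the sort, is made by microglia, macrophages, monocytes, dendritic cells and B cells alike. Microglia that respond to damage can also raise class II, so class II message alone does not name a lineage.

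Class II promoters share an X box and a Y box, bound by RFX and NF-Y, on which CIITA is recruited. Of the genes of class II and class II-like chains, 8 had an entry, with 9 promoters (300 bases, 250 before to 50 after the start, both strands searched). The Y box letters CTGATTGG stood in 4 of the 9, against 4.10% of 32851 mouse promoters. The letters GCAAC, with which the X box opens, stood in 6 of the 9, against 35.2% of all promoters, and all 4 promoters with the Y box letters (H2-Aa, H2-Eb1, H2-Oa and H2-Eb2) held both. The stretches of 2 rule genes and of H2-Oa, which encodes a chain that tempers peptide loading, are shown from RefSeq (GRCm38.p6) with GCAAC and CTGATTGG in capitals. They lie at chr17:34287862-34287909 (minus strand), chr17:34305771-34305817 (plus strand) and chr17:34092298-34092345 (plus strand). The bases between the pair of motifs number 25 in H2-Aa, 24 in H2-Eb1 and 25 in H2-Oa. A match of letters describes the sequence and shows no binding.
H2-Aa: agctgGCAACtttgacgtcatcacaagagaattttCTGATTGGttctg
H2-Eb1: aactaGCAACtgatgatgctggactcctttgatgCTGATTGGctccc
H2-Oa: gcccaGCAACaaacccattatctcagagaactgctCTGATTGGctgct

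By library the members numbered 127 of 7004 nuclei in P301S/E4/TREM2- and 163 of 6186 in P301S/E4/TREM2+. There were 15 of 5050 in P301S/EKO/TREM2- and 28 of 3582 in P301S/EKO/TREM2+. The E4 libraries held 67 of 4828 nuclei in TREM2- and 41 of 5088 in TREM2+. As shares of passing nuclei this was 1.81% (exact 95% interval 1.51 to 2.15) in P301S/E4/TREM2- and 2.63% (2.25 to 3.07) in P301S/E4/TREM2+. It was 0.297% in P301S/EKO/TREM2- and 0.782% in P301S/EKO/TREM2+. In E4 it was 1.39% in TREM2- and 0.806% in TREM2+. The P301S/E4 pair had the highest shares and P301S/EKO/TREM2- the lowest.

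**Figure D1:**
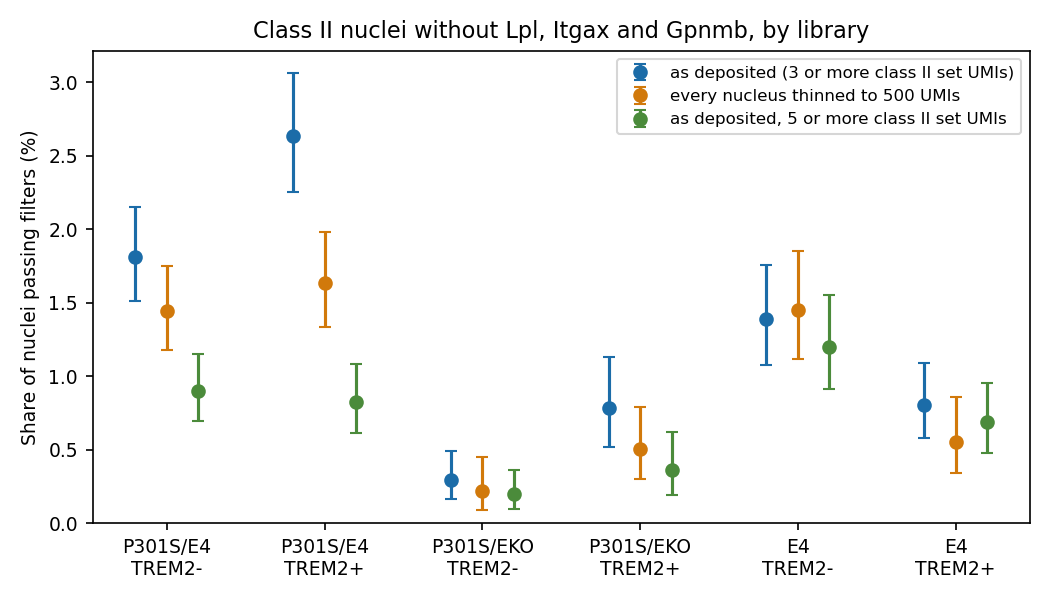
Share of passing nuclei that were members (y axis, percent) in each of the 6 libraries, with exact 95% binomial intervals, for all nuclei, for nuclei thinned to 500 UMIs and for a minimum of 5 class II UMIs. With the minimum of 3 the share of all nuclei lay between 0.297% in P301S/EKO/TREM2- and 2.63% in P301S/E4/TREM2+.

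The ratio of TREM2- to TREM2+ shares was 0.688 (95% interval 0.547 to 0.866) in P301S/E4 and 0.380 (0.203 to 0.710) in P301S/EKO. In E4 the ratio was 1.72 (1.17 to 2.54), with the TREM2- share higher. The 3 backgrounds therefore did not move one way. At 5 or more class II UMIs the P301S/E4 ratio was 1.09 (0.755 to 1.58), with the TREM2- share then higher. No single ratio can be tested with 1 library per genotype. Over the 3 pairs the mean log2 ratio was -0.38 (SD 1.10), and a two-sided exact permutation test within pairs gave p = 0.75, where the smallest p possible is 0.25. Within a pair, TREM2 genotype cannot be told apart from differences between the pools. Depth also moved with the libraries, because the median UMI count of passing nuclei was 915 in P301S/E4/TREM2- and 775 in P301S/E4/TREM2+, but 569 in P301S/EKO/TREM2- and 572 in E4/TREM2+. After each nucleus was thinned to 500 UMIs, the share was 1.44% in P301S/E4/TREM2-, 1.63% in P301S/E4/TREM2+, 1.45% in E4/TREM2- and 0.556% in E4/TREM2+. The thinned ratio of TREM2- to TREM2+ was 0.883 (0.672 to 1.16) in P301S/E4, 0.432 (0.181 to 1.03) in P301S/EKO and 2.61 (1.58 to 4.31) in E4. Nuclei under 500 UMIs were left out by the thinning, 1827 from P301S/EKO/TREM2-, 417 from E4/TREM2-, 1488 from E4/TREM2+ and 0 from each other library.

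The ratio of P301S/E4 to E4 shares was 1.31 without TREM2 (0.974 to 1.75) and 3.27 with TREM2 (2.33 to 4.60). These ratios depended on the class II minimum. Among nuclei with at least 5 class II UMIs they were 0.749 without TREM2 and 1.20 with TREM2, with shares of 0.899% in P301S/E4/TREM2-, 0.824% in P301S/E4/TREM2+, 1.20% in E4/TREM2- and 0.688% in E4/TREM2+. P301S/E4 exceeded P301S/EKO 6.10-fold without TREM2 and 3.37-fold with TREM2 at the minimum of 3.

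The class II load differed among members. The 6 rule genes summed to a median of 5 UMIs per member and to at most 220. They made up a median of 0.516% of a member's UMIs in P301S/E4/TREM2- and 0.447% in P301S/E4/TREM2+, against 1.60% in E4/TREM2- and 1.53% in E4/TREM2+. In P301S/EKO the median was 1.73% in TREM2- and 0.426% in TREM2+. Of the members, 211 held 3 or 4 class II UMIs, 116 held 5 to 9 and 114 held 10 or more. The band of 3 or 4 UMIs held 50.4% of members in P301S/E4/TREM2- and 68.7% in P301S/E4/TREM2+, but 9 of 67 in E4/TREM2- and 6 of 41 in E4/TREM2+. Most members of the P301S/E4/TREM2+ library thus sat at the edge of the rule, while those of the E4 libraries sat above it.

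**Figure D2:**
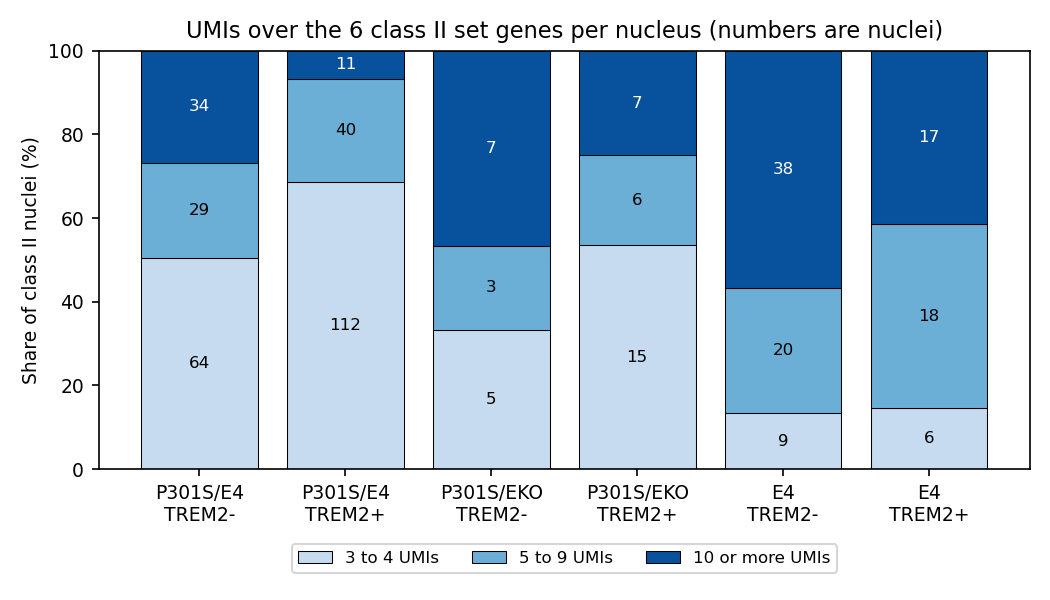
Members of each library by the number of UMIs summed over the 6 class II rule genes (3 to 4, 5 to 9, 10 or more), as percent of the members of that library. P301S/E4/TREM2+ had 68.7% of its members in the lowest band and 6.75% in the highest.

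Cd74 had the highest UMI count of the 6 rule genes in each library, 1918 of their 4259 UMIs in all. It had 502 UMIs in members of P301S/E4/TREM2- and 497 in P301S/E4/TREM2+, 91 in P301S/EKO/TREM2- and 105 in P301S/EKO/TREM2+, and 505 in E4/TREM2- and 218 in E4/TREM2+. H2-Aa, H2-Ab1 and H2-Eb1 were each found in all 6 libraries. Ciita was rare, with 33 UMIs in P301S/E4/TREM2- and 2 to 11 in each other library. Ccr2 had 72 UMIs in members of P301S/E4/TREM2-, 30 in P301S/E4/TREM2+, 13 in P301S/EKO/TREM2-, 3 in P301S/EKO/TREM2+, 25 in E4/TREM2- and 15 in E4/TREM2+. Nuclei just outside the rule, with exactly 2 class II UMIs, numbered 456 and held 8591 CPM of the microglia list (CPM, UMIs per 1000000 UMIs of the class in a library, or over the libraries pooled). Nuclei just inside, with exactly 3, numbered 138 and held 7440 CPM.

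Single class II UMIs also occurred in nuclei that should lack the message. Of 50 nuclei gated as neurons, 5 (10%) had at least 1 UMI of the class II genes and 0 had 3 or more, which allows a share of up to 6% for counting error only. Among all passing nuclei 15.9% had at least 1 and 2.92% at least 3. The neuron nuclei were deeper, with a median of 4858.5 UMIs against 725.5 in passing nuclei. No barcode was shared by members of different libraries, and 3 member barcodes also occurred in another library, among 115 shared barcodes of 33220 distinct ones. No doublet caller was used, so doublets remained; 40 members had over 2 times the median UMI count of their library.

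Whether members carried microglial message was read from 13 genes of microglia that the rule did not use. Summed over the list, P301S/E4 members had 6079 CPM without TREM2 and 6740 CPM with it. P301S/EKO members had 7152 CPM without TREM2 and 8006 CPM with it, and E4 members 7645 CPM without TREM2 and 5575 CPM with it. The same list in class II-negative nuclei (0 class II UMIs, 0 Lpl-programme UMIs, under 2 border-associated macrophage UMIs) ran from 8038 CPM in P301S/E4/TREM2+ to 17043 CPM in E4/TREM2-. Members were below class II-negative nuclei in each of the 6 libraries. The list reached a median of 6291 CPM in border-associated macrophage-gated nuclei (at least 2 UMIs over the 5 border genes), against a median of 6946 CPM in members. Neuron-gated nuclei held 476 CPM, a level that their gate limits, as it needs fewer UMIs of the microglia list than of the neuron list.

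**Figure D3:**
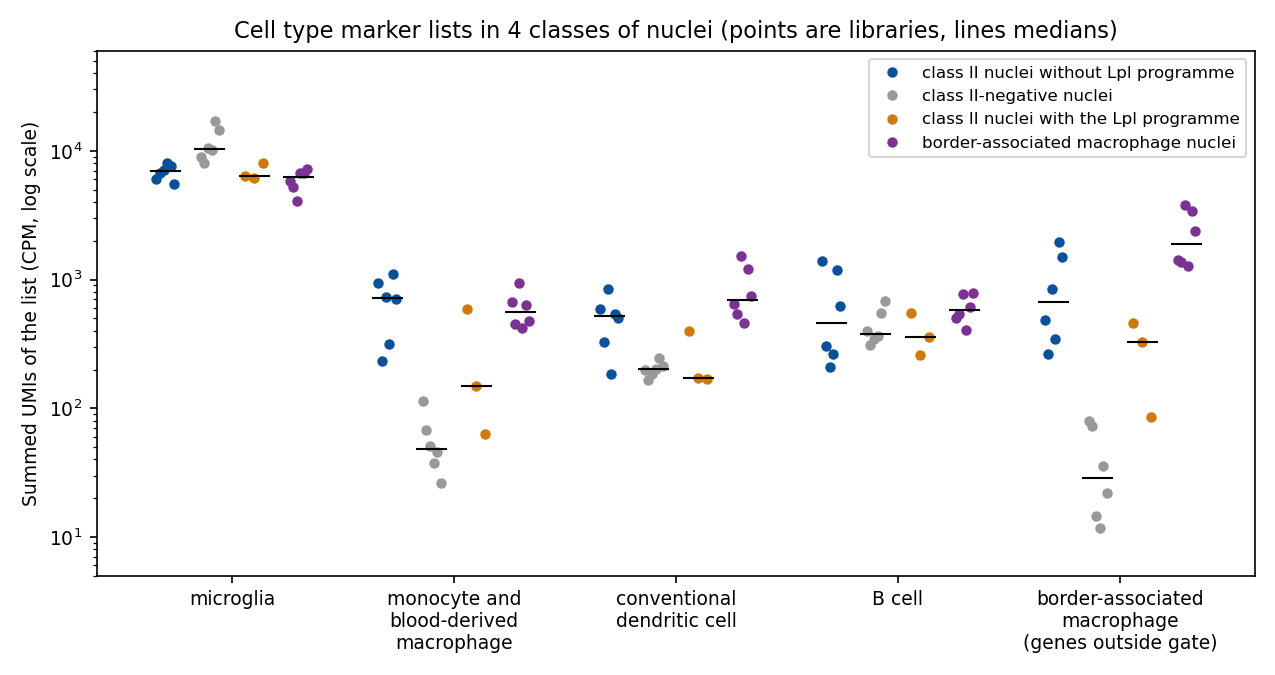
Summed level (CPM, log axis) of marker lists of microglia, monocyte and blood-derived macrophage, conventional dendritic cell, B cell and border-associated macrophage in members and in the nuclei they were compared with, 1 point per library with at least 10 nuclei and a bar at the median. The microglia list had a median of 6946 CPM in members and 10370 CPM in class II-negative nuclei.

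Most single members held microglia message. Of the 441, 64 (14.5%, exact 95% interval 11.4 to 18.2) had at most 1 UMI over the 13 genes and are called marker-poor, and 21 had none. The marker-poor share was 2.81% in class II-negative nuclei and 18.5% in border-associated macrophage-gated nuclei. At 500 UMIs per nucleus it was 26.4% in members, 6.49% in class II-negative nuclei, 25.2% in class II nuclei with the Lpl programme and 37.6% in border-associated macrophage-gated nuclei. By library the marker-poor members numbered 20 of 127 in P301S/E4/TREM2- and 15 of 163 in P301S/E4/TREM2+, 2 of 15 in P301S/EKO/TREM2- and 3 of 28 in P301S/EKO/TREM2+, and 9 of 67 in E4/TREM2- and 15 of 41 in E4/TREM2+. The E4/TREM2+ share, 36.6%, stood highest, and its members were shallow, with a median of 509 UMIs. Thinned to 500 UMIs, the E4/TREM2+ share was 27.3%, beside 28.3% in E4/TREM2-, 28.3% in P301S/E4/TREM2- and 25.8% in P301S/E4/TREM2+. The thinned E4/TREM2+ share was 6 of 22 members (exact 95% interval 10.7 to 50.2). Its 19 members under 500 UMIs were left out, so it covers other nuclei than the 36.6% and does not show equal shares. Over all members it was 8.53% with 3 or 4 class II UMIs, 19.0% with 5 to 9 and 21.1% with 10 or more, but the libraries did not share 1 order. Over the same bands it was 9.38%, 13.8% and 29.4% in P301S/E4/TREM2- and 6.25%, 10% and 36.4% in P301S/E4/TREM2+. In E4 it was 11.1%, 35% and 2.63% in TREM2- and 66.7%, 33.3% and 29.4% in TREM2+, the lowest band there holding 9 and 6 members.

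Members were then compared with class II-negative nuclei gene by gene, as sums per library with the library as a block (441 against 23481 nuclei, 9517 genes, edgeR quasi-likelihood test, Benjamini-Hochberg adjusted p of 0.05 or less). This asked which genes outside the rule differed. The filter on low counts needs a minimum level in enough of the sums. A gene scarce in class II-negative nuclei was therefore tested only where members held it. Counts of rising genes and medians within marker lists are not independent of that filter. In all 217 genes (2.28%) were called, 118 higher (1.24%) and 99 lower (1.04%) in members, and without the E4/TREM2- library the count was 103. The median log2 fold change over all genes tested was -0.18, and -0.060 with RLE scaling, which gave 156 higher and 79 lower calls (66.4% higher, against 54.4%). Of the microglia list, 0 genes rose and 9 of 13 fell, and the list's median was -0.97. DESeq2 called 5 of the 13.

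Tmem119, a membrane protein of microglia (chr5:113793729-113800516, minus strand, GRCm38, as for all gene locations), had 45.0, 171 and 238 CPM in members (lowest, median and highest library) against 183, 318 and 613 CPM in class II-negative nuclei. Members were lower in 6 of 6 libraries, and the log2 fold change was -1.42 (SE 0.26, edgeR adjusted p = 8.92e-06). P2ry12, the purinergic receptor with which microglia sense injury (chr3:59216272-59262871, minus strand), had 291, 419 and 562 CPM in members and 411, 758 and 1422 CPM in class II-negative nuclei. It fell by 1.03 on the log2 scale. Sparc, P2ry13, Gpr34, Siglech, Sall1 and Cx3cr1 also fell, by 0.77 to 1.13. In a depth window of 1000 to 3000 UMIs, with 124 members and 3104 class II-negative nuclei in 4 libraries, P2ry12 had -0.63 (edgeR adjusted p = 0.357) and Tmem119 -0.91 (edgeR adjusted p = 0.284).

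The genes that rose most included several known from macrophages. Ms4a7, a tetraspan membrane protein of macrophages (chr19:11321039-11336146, minus strand), had 314 CPM in P301S/E4 members without TREM2 and 212 CPM in those with it. P301S/EKO members had 526 CPM without TREM2 and 291 CPM with it, and E4 members 1670 CPM without TREM2 and 1290 CPM with it. Ms4a7 lay between 5.53 and 65.1 CPM in class II-negative nuclei, so the groups did not overlap. The share of all tested genes without overlap was not counted, here or for the genes below. The log2 fold change of Ms4a7 was 4.35 (SE 0.25, edgeR adjusted p = 2.72e-66, higher in 6 of 6 libraries). Border-associated macrophage-gated nuclei held 635 to 1412 CPM of Ms4a7.

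Clec12a, an inhibitory lectin of monocytes, granulocytes and dendritic cells (chr6:129342691-129365303, plus strand), had 32.2, 179 and 527 CPM in members (lowest, median and highest library) against 0.369, 1.11 and 7.22 CPM in class II-negative nuclei. Members were above class II-negative nuclei in 6 of 6 libraries, with a log2 fold change of 6.16 (SE 0.41). The lowest member value came from P301S/E4/TREM2+ with 5 UMIs and the highest from E4/TREM2- with 30. F630028O10Rik, an X-linked transcript that the annotation gives no fuller name (chrX:96239926-96243636, plus strand), had 109, 485 and 1165 CPM in members against 5.53, 17.2 and 19.4 CPM in class II-negative nuclei, a log2 fold change of 4.62 (SE 0.27).

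Mndal and Ifi203 belong to the interferon-inducible Ifi200 family of DNA sensors on chromosome 1. Mndal had 32.2, 466 and 707 CPM in members against 1.74, 1.95 and 8.38 CPM in class II-negative nuclei, a log2 fold change of 6.49 (SE 0.36). Ifi203 had 32.2, 576 and 841 CPM in members against 2.06, 6.14 and 8.38 CPM in class II-negative nuclei, a log2 fold change of 5.90 (SE 0.32). Their annotated spans overlap on the minus strand (Mndal chr1:173849126-173942491, Ifi203 chr1:173920407-173942672) and the family has near-identical copies, so the split of UMIs between Mndal and Ifi203 is uncertain. In both genes the groups did not overlap, and P301S/E4/TREM2+ had the lowest member value.

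Mgl2, a galactose-binding lectin of dendritic cells and macrophages, rose with a log2 fold change of 5.19 and averaged 105 CPM in members against 1.51 CPM in class II-negative nuclei. Ms4a14 (4.62), Stap1 (4.33), Myof (4.25), Pltp (3.40), Cybb (3.38) and Ms4a4c (3.26) completed the 12 highest among eligible genes. To be eligible, a called gene needed at least 50 UMIs and 1 direction in 6 of 6 libraries. Cybb encodes the catalytic subunit of the phagocyte NADPH oxidase and averaged 210 CPM in members against 15.2 CPM in class II-negative nuclei. Ms4a7, Ms4a14 and Ms4a4c are relatives in 1 gene cluster, and reads of similar copies cannot be separated here. The authors' deposited table lists 50 markers of their MHCII cluster, of which 8 are rule genes and 41 were tested. Of the 41, 32 rose and 0 fell, with a median log2 fold change of 1.63, but the markers were chosen on these same libraries and are not independent evidence.

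**Figure D4:**
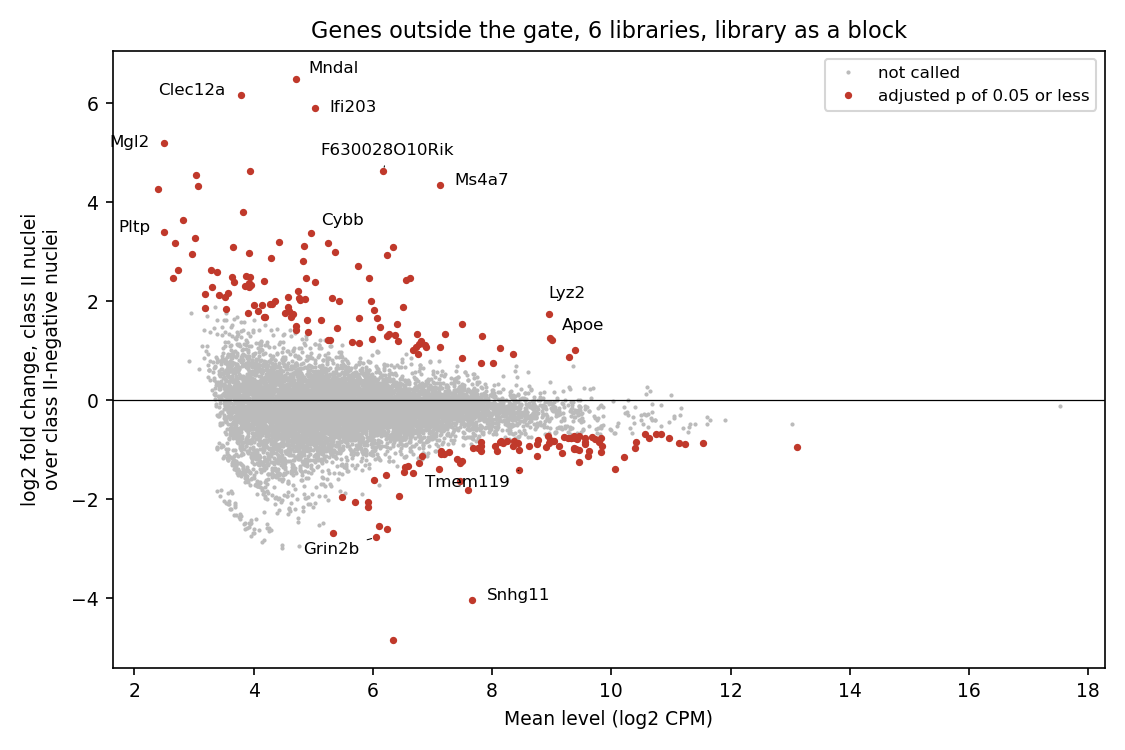
Log2 fold change of members over class II-negative nuclei (y axis) against mean level (x axis, log2 CPM) for 9502 of the 9517 genes tested, with called genes coloured. The 15 genes with 0 UMIs in members are not drawn. Mndal (6.49), Clec12a (6.16) and Ms4a7 (4.35) lie at the top, and Tmem119 (-1.42) lies under 0.

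Of 12 monocyte and blood-derived macrophage genes, 5 passed the filter on low counts against class II-negative nuclei, 4 rose and 0 fell, with a median of 3.20. Genes of this list scarce in both classes did not pass, so the count and the median describe the tested genes only. Besides Clec12a these were Ahnak, a large scaffold protein (4.54, higher in 5 of 6 libraries), Itga4, an integrin chain for crossing vessel walls (3.20), and Tgfbi, a matrix protein (2.39). S100a6 had a log2 fold change of 1.63 (edgeR adjusted p = 0.0740). The defining monocyte genes stayed scarce. In members Ly6c2 had 4 UMIs in P301S/E4/TREM2- and 2 in P301S/EKO/TREM2-, and 0 elsewhere. Plac8 had 1 UMI in each P301S/E4 library. Chil3 had 3 UMIs, all in P301S/E4/TREM2-, and Vcan had 5 in P301S/E4/TREM2- and 2 in P301S/E4/TREM2+. Over the whole list, P301S/E4 members had 942 CPM without TREM2 and 232 CPM with it, P301S/EKO members 736 CPM without and 317 CPM with it, and E4 members 1107 CPM without and 707 CPM with it. In class II-negative nuclei it lay between 26.4 and 114 CPM, and in border-associated macrophage-gated nuclei the median was 555 CPM, against 722 CPM in members.

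Few single members held several monocyte genes. With a gate chosen after the values were seen, UMIs of at least 2 different genes of a list, 45 of 441 members (10.2%, 7.54 to 13.4) were positive for the monocyte list and 363 (82.3%) for the microglia list. Of class II-negative nuclei, 0.234% were positive for the monocyte list and 95.8% for the microglia list. At 500 UMIs per nucleus the monocyte gate held 5.13% of members, 0.0799% of class II-negative nuclei, 1.55% of class II nuclei with the Lpl programme and 5.13% of border-associated macrophage-gated nuclei. By library it held 22 of 127 members in P301S/E4/TREM2- and 7 of 163 in P301S/E4/TREM2+, 2 of 15 in P301S/EKO/TREM2- and 3 of 28 in P301S/EKO/TREM2+, and 9 of 67 in E4/TREM2- and 2 of 41 in E4/TREM2+.

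Of 13 conventional dendritic cell genes, 7 were tested, Mgl2 and Clec10a (3.64) rose, and the median was 0.74. Both lectins are also made by macrophages. Flt3, the receptor that drives dendritic cell growth, had 8 UMIs in P301S/E4/TREM2- members, 1 in P301S/E4/TREM2+, 2 in E4/TREM2- and 1 in E4/TREM2+. Clec9a, a marker of cross-presenting dendritic cells, had 8 UMIs in P301S/E4/TREM2- and 3 in E4/TREM2-, and 0 elsewhere. The gate of 2 genes held 32 members (7.26%) for this list, of which 18 were in P301S/E4/TREM2-. It held 28 members (6.35%) for the B cell list, of which 22 were in P301S/E4/TREM2- and 4 in E4/TREM2-.

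B cell message was concentrated by library. Ebf1, a transcription factor of early B cells, had 51 UMIs in members and all were in P301S/E4/TREM2-, as were all 8 UMIs of Ms4a1. Igkc, the kappa light chain, had 43 UMIs in P301S/E4/TREM2- and 27 in E4/TREM2-. Of the 13 B cell genes 4 passed the filter, and 0 were called against class II-negative nuclei by edgeR (0 at an unadjusted p under 0.05) or by DESeq2, Ighm at -0.05. T or NK cell genes were positive in 1 member and neutrophil genes in 0 by the gate of 2 genes, which allows a share of up to 0.680%. Of the border-associated macrophage genes outside the rule, Ms4a7 and Clec10a were tested and both rose, and Lyve1 was at 0 UMIs in every library. That list summed to 487 CPM in P301S/E4 members without TREM2 and 264 CPM in those with it, but to 1968 CPM in E4 members without TREM2 and 1498 CPM in those with it.

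Within the class II pathway, 6 genes beyond the rule were tested against class II-negative nuclei. H2-DMb1 and H2-DMa, the chains of the exchanger that loads peptide, rose by log2 fold changes of 1.66 and 1.19. The classes were set by class II genes and Ciita, so other genes of the class II pathway are not independent of that choice. Lgmn, a protease of the endosome, fell by 0.77. Ctss, the protease that trims the invariant chain, had a log2 fold change of -0.30 (edgeR adjusted p = 0.681), and the median of the 6 was 0.25. Of 10 transcription factors of class II, RFX and NF-Y subunits among them, 0 were called by edgeR (2 at an unadjusted p under 0.05) or by DESeq2, and the median was -0.19. Irf1 had a log2 fold change of 0.97 (edgeR adjusted p = 0.171). Of all genes tested, 990 had an unadjusted p under 0.05. Of 4 costimulatory genes tested, Cd86 among them, 0 were called by edgeR (0 at an unadjusted p under 0.05) or by DESeq2. In class I, Nlrc5, its transactivator, rose by 1.21 and H2-K1 by 0.87, 2 of 9 tested, with a median of 0.54.

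Of the interferon response genes 2 of 17 tested rose and 0 fell, Ifi44 (2.36) and Oasl2 (1.08), and the median was 0.49. DESeq2 called 0 of the 17. Of 17 genes of the disease-associated microglia programme beyond Lpl, Itgax and Gpnmb, 3 rose, 2 fell and the median was 0.16. Lyz2, the lysozyme of macrophages and activated microglia, had 502, 1019 and 1367 CPM in members against 76.9, 204 and 532 CPM in class II-negative nuclei, a log2 fold change of 1.73 (SE 0.21, 6 of 6 libraries). Axl, a receptor for dying cells, rose by 1.30. Ctsd and Ctsl, lysosomal proteases, fell by 0.89 and 0.75.

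Apoe message checked the labels and differed between libraries. Members had 116 UMIs of Apoe in P301S/E4/TREM2- and 169 in P301S/E4/TREM2+, 0 in both P301S/EKO libraries, 67 in E4/TREM2- and 19 in E4/TREM2+. Reads were aligned to the mouse genome, so the Apoe of APOE4 mice is what matched the mouse gene. Members of E4/TREM2- had 1177 CPM of Apoe and those of E4/TREM2+ 790 CPM, against 107 CPM in class II-negative nuclei of each. In P301S/E4 the values were close, at 743 CPM in members against 737 CPM in class II-negative nuclei of TREM2-, and at 1087 against 1016 CPM in TREM2+. Over the 6 libraries Apoe rose by a log2 fold change of 1.21.

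The 12 lowest called genes with at least 50 UMIs and 1 direction in every library included several abundant in neurons. Meg3, a long noncoding RNA abundant in neurons, had 0 UMIs in 441 members. In class II-negative nuclei Meg3 had 8512 UMIs, from 195 of 23481 nuclei (0.830%). The exact 95% interval of 0 of 441 reaches 0.833%, so the share of nuclei with Meg3 was not separated from that in class II-negative nuclei. Snhg11 (-4.03), Grin2b (-2.78) and Camk2a (-2.60) fell too, with 3 to 5 UMIs each in members. When neuron-gated nuclei were left out of both classes, 211 genes were called (117 higher, 94 lower), Snhg11 at -3.33 and Camk2a at -2.38 were still called, and Grin2b (-2.03, edgeR adjusted p = 0.138) was not. The neuron list lay between 0 and 132 CPM in members. Lig4, Pcdhga12, Tmc7 and Gemin5 also had 0 UMIs in members, against means of 31.4, 16.4, 18.3 and 16.3 CPM in class II-negative nuclei, at least 4.23-fold, 2.40-fold, 2.67-fold and 2.43-fold lower with a floor of 3 UMIs over the group. Gm3164 (-4.84) and Tom1l1 (-2.07) were also among the 12, with 1 and 6 UMIs in members.

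Members were next set against class II nuclei that did hold the Lpl programme (at least 3 class II UMIs and at least 1 of Lpl, Itgax and Gpnmb). These numbered 55 in P301S/E4/TREM2- and 184 in P301S/E4/TREM2+, 3 in P301S/EKO/TREM2- and 14 in P301S/EKO/TREM2+, and 2 in E4/TREM2- and 1 in E4/TREM2+. Only 3 libraries had at least 10 nuclei of each class (318 against 253 nuclei, 3174 genes). There 1 gene was called (0.0315%), and 199 had an unadjusted p under 0.05 in the edgeR quasi-likelihood test. Spp1, osteopontin, which accompanies Lpl in disease-associated microglia (chr5:104435118-104441050, plus strand), had 32.0 CPM in members against 93.9 CPM in nuclei with the programme in P301S/E4/TREM2-. In P301S/E4/TREM2+ it had 367 against 989 CPM, and in P301S/EKO/TREM2+ 0 against 63.6 CPM. Members were lower in 3 of 3 libraries, with a log2 fold change of -1.48 (SE 0.25, edgeR adjusted p = 0.000225), from 62 UMIs against 364. The classes were set by Lpl, Itgax and Gpnmb, so a gene that accompanies Lpl, as Spp1 does, is not independent of that choice.

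Clec12a was higher in members than in class II nuclei with the Lpl programme in 3 of 3 libraries but was not called (log2 fold change 1.79, edgeR adjusted p = 0.0948). Ms4a7 had a log2 fold change of -0.10 there. Of 11 microglia genes tested 0 were called by edgeR (0 at an unadjusted p under 0.05) or by DESeq2, with a median of 0.02, beside a median of -0.0020 over all genes tested. Of the 16 disease-associated microglia genes tested, Spp1 was the 1 that fell and 0 rose.

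Against border-associated macrophage-gated nuclei (441 against 1042 nuclei, 2790 genes), 145 genes were called (5.2%), 44 higher (1.58%) and 101 lower (3.62%) in members. The count was 95 without P301S/E4/TREM2- and 96 without E4/TREM2-. The border nuclei had at least 2 UMIs of F13a1, Mrc1, Cd163, Cd209f and Cbr2, so other genes of the same cells are not independent of that choice. Cd209g, a C-type lectin of border macrophages (chr8:4134098-4137707, plus strand), had 1 UMI in all members, in E4/TREM2-, against 209 to 678 CPM in border nuclei (log2 fold change -6.88). Dab2, an endocytic adaptor, had 154, 303 and 707 CPM in members against 1290, 1818 and 2789 CPM in border nuclei, a log2 fold change of -2.49. Stab1, a scavenger receptor, had 210, 366 and 1040 CPM in members against 1444, 2343 and 3330 CPM in border nuclei, a log2 fold change of -2.33. Neither Dab2 nor Stab1 overlapped between the groups. Both were named as among the lowest called genes with 1 direction in every library, so this adds little.

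Further down were Tslp (-3.76), Clec10a (-3.06), Pf4 (-2.82), Cenpf (-2.69), Stard8 (-2.39), Itsn1 (-2.34), Cd38 (-2.32), Hgsnat (-2.20) and Adam33 (-2.18). All 4 border-associated macrophage genes outside the rule that were tested fell, with a median of -2.57 beside 0.0023 over all genes tested. On the log2 scale Ms4a7 fell by 0.73, Apoe by 0.73 and Lyz2 by 0.62, and Igf1, a growth factor, fell by 1.45.

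Higher in members than in border nuclei were H2-Q7, a class I-like gene with near-identical relatives (1.69), Cd52, a leukocyte surface glycopeptide (1.42), Cd83, a stabiliser of surface class II (1.31), and H2-DMb1 (1.28). On the log2 scale Icosl, a costimulatory ligand, rose by 1.02 and Icam1, an adhesion molecule, by 0.96. Nlrp1b (0.92), Pbxip1 (0.88), Btg1 (0.87), Rps15a (0.85), Neurl3 (0.83) and Slc15a3 (0.83) completed the 12 highest among eligible genes. Being higher in 6 of 6 libraries was again a condition for this list. H2-DMa (1.10), Ctss (0.49), H2-K1 (0.52), Axl (0.90) and Clec12a (0.89) also rose. As members were chosen by class II genes, the rise of H2-DMb1 and H2-DMa is not independent of the rule. Of 11 microglia genes tested 0 rose and 1 fell, Fcrls by 0.65, and the list's median was 0.05.

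Marker-poor members were compared with marker-rich members, those with at least 5 UMIs of the microglia list, in the 3 libraries with at least 10 of each (50 against 170 nuclei, 85 genes). The microglia list set these groups and was not tested. As the groups were set by raw counts, marker-poor members were shallower. In P301S/E4/TREM2-, 20 marker-poor members held 16548 UMIs and 66 marker-rich members 104641. In P301S/E4/TREM2+, 15 marker-poor members held 9551 UMIs and 94 marker-rich members 102326. The part that depth plays in the differences below was not tested. Called were 3 genes (3.53%), all higher in marker-poor members. H2-K1 had a log2 fold change of 1.27 (SE 0.21) and averaged 1501 CPM in marker-poor members against 720 CPM in marker-rich members. The others were mt-Co2 (1.08) and Malat1 (0.50), whose rise turned into a fall without the filter on low counts. Without P301S/E4/TREM2- or without P301S/E4/TREM2+ the count was 0, and without E4/TREM2+ it was 71. As a description over all 6 libraries, the class II set summed to 15496 to 28393 CPM by library in marker-poor members. In marker-rich members it summed to 3169 to 18417 CPM. Marker-poor members of P301S/EKO numbered only 2 in TREM2- and 3 in TREM2+, and the latter gave the 28393 CPM. The monocyte list had a median of 1651 CPM in marker-poor members and 384 CPM in marker-rich members, and P301S/E4/TREM2- was highest among the marker-poor with 2840 CPM. Mgl2 had a median of 240 CPM in marker-poor and 0 CPM in marker-rich members. The B cell list reached 3928 CPM in marker-poor members of P301S/E4/TREM2-. Its median over the 6 libraries was 614 CPM in marker-poor and 493 CPM in marker-rich members.

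Genotype was tested within members in 1 additive fit over the 6 libraries, with background and TREM2 as terms and 2 residual degrees of freedom (725 genes, edgeR quasi-likelihood test). With 1 library per genotype, the residual is only what the additive terms leave between backgrounds, and no genotype was replicated. The contrasts share libraries. P301S/EKO/TREM2- entered with 15 nuclei and P301S/EKO/TREM2+ with 28. Trem2 itself (chr17:48346401-48354147, plus strand) had 448 CPM in members of P301S/E4/TREM2- against 1132 CPM in P301S/E4/TREM2+. In P301S/EKO it had 316 CPM in TREM2- against 1136 CPM in TREM2+, and in E4 281 CPM in TREM2- against 291 CPM in TREM2+, from 16 and 7 UMIs. TREM2- members thus kept Trem2 reads, and in the E4 pair, of 67 and 41 nuclei, the level did not separate the labels. Trem2 had 369 CPM in TREM2- and 946 CPM in TREM2+ in class II-negative nuclei of the E4 pair.

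Between TREM2- and TREM2+ members 4 genes were called (0.552%), 41 had an unadjusted p under 0.05, and DESeq2 called 0. Trem2 fell by 1.17 on the log2 scale, and Asph, an aspartate hydroxylase of the endoplasmic reticulum, by 1.39. Rnf121, a ubiquitin ligase (chr7:102019137-102065469, minus strand), had 327 CPM in P301S/E4/TREM2- against 12.9 CPM in P301S/E4/TREM2+. It had 526 against 317 CPM in P301S/EKO and 439 against 0 CPM in E4, TREM2- against TREM2+. Its log2 fold change was 2.79 (SE 0.48). In class II-negative nuclei Rnf121 was also lowest in P301S/E4/TREM2+, at 16.9 CPM, and next in E4/TREM2+, at 91.8 CPM, with 217 to 354 CPM elsewhere. Mndal rose by 1.34, with 301.1 against 32.2 CPM in P301S/E4 and 631 against 211 CPM in P301S/EKO, but with 633 against 707 CPM in E4, TREM2- against TREM2+. Without P301S/E4/TREM2- and without P301S/E4/TREM2+ the count was 0, and without E4/TREM2+ it was 7.

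Between P301S/E4 and E4 members 37 genes were called (5.1%), 18 higher (2.48%) and 19 lower (2.62%). Ms4a7 fell by 2.57 on the log2 scale (SE 0.31, edgeR adjusted p = 4.02e-13), with 314 and 212 CPM in P301S/E4 members (TREM2- first, then TREM2+) against 1670 and 1290 CPM in E4 members. In class II-negative nuclei the order was the other way, at 59.8 and 65.1 CPM in P301S/E4 against 12.6 and 9.22 CPM in E4. Ifi203 fell by 2.95, with 192 and 32.2 CPM in P301S/E4 members against 808 and 832 CPM in E4 members. F630028O10Rik fell by 2.25, with 339 and 109 CPM in P301S/E4 members against 879 and 1165 CPM in E4 members. Ms4a14 (-2.36), Gpr65, a proton-sensing receptor (-2.08), and Mndal (-2.08) fell as well. In each of Ms4a7, Ifi203 and F630028O10Rik the P301S/E4 members stood below both E4 libraries.

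Higher in P301S/E4 than in E4 members were Colgalt1 (2.72), Nav3 (2.70), Slc1a3 (2.54), Serpine2 (2.23), Hif1a (1.96) and Plek (1.80). Nav3, a neuron navigator protein that microglia also make (chr10:109681259-110456204, minus strand), had 480 and 379 CPM in P301S/E4 members (TREM2- first, then TREM2+) against 70.3 and 41.6 CPM in E4 members (SE 0.57, edgeR adjusted p = 0.000157). Nav3 in class II-negative nuclei had 709 and 478 CPM in P301S/E4 against 836 and 860 CPM in E4. Serpine2, a protease inhibitor (chr1:79794197-79861180, minus strand), had 256 and 617 CPM in P301S/E4 members against 70.3 and 83.2 CPM in E4 members. Irf8, a factor of microglia and dendritic cells, rose by 1.41, and Ctsd by 1.65. The E4 members were thus the ones with more Ms4a7 and less Nav3 and Serpine2.

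**Figure D5:**
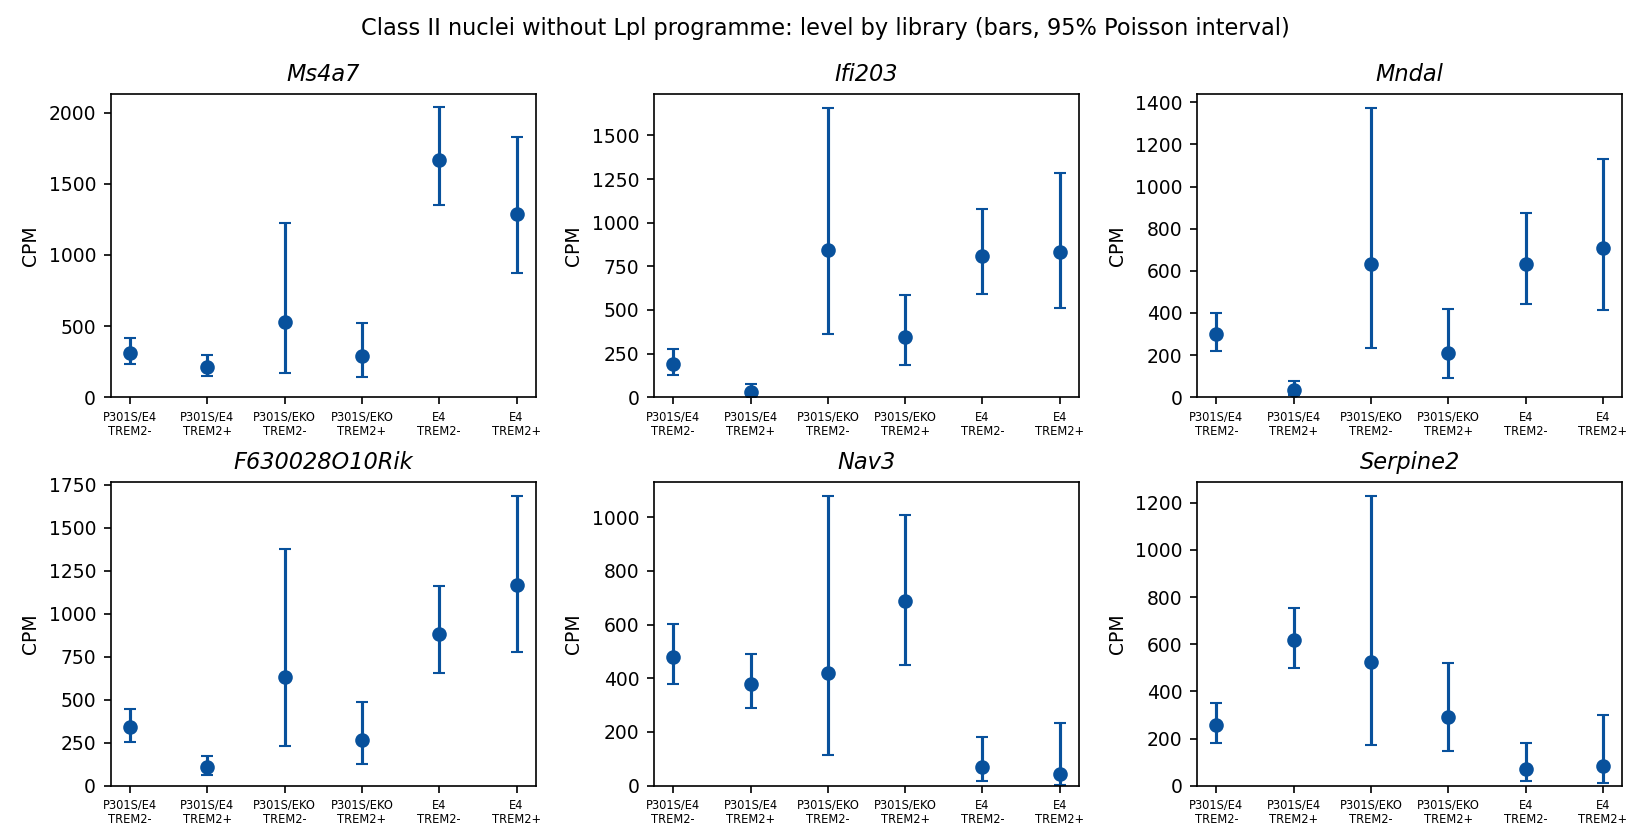
Levels (CPM, 95% Poisson intervals that cover counting error only) of Ms4a7, Ifi203, Mndal, F630028O10Rik, Nav3 and Serpine2 in members of each library. In Ms4a7 both P301S/E4 libraries (314 and 212 CPM) lie under both E4 libraries (1670 and 1290 CPM), while Nav3 and Serpine2 run the other way.

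The class II load moved with this contrast, since 38 of 67 members of E4/TREM2- and 17 of 41 of E4/TREM2+ had 10 or more class II UMIs, against 34 of 127 in P301S/E4/TREM2- and 11 of 163 in P301S/E4/TREM2+. With members of at least 5 class II UMIs, 10 genes were called. Ms4a7 (-2.13), Ifi203 (-2.38), F630028O10Rik (-1.63), Mndal (-1.56) and Ctsd (1.63) were still called, whereas Nav3 had 2.14 (edgeR adjusted p = 0.311). Over all members pooled, Ms4a7 had 201 CPM in the band of 3 or 4 class II UMIs, 638 CPM at 5 to 9 and 1028 CPM at 10 or more, but the bands draw on different libraries. Within libraries Ms4a7 had 254, 542 and 284 CPM over the 3 bands in P301S/E4/TREM2- and 140, 350 and 471 CPM in P301S/E4/TREM2+. In E4 it had 364, 1236 and 2148 CPM in TREM2- and 1145, 1494 and 1142 CPM in TREM2+. Each of these values was above that of P301S/E4 with the same TREM2 genotype, but several rest on few UMIs. In the lowest band Ms4a7 had 3 UMIs in 9 members of E4/TREM2- and 4 UMIs in 6 members of E4/TREM2+. The highest band of P301S/E4/TREM2+ had 4 UMIs in 11 members. The part that class II load plays in this contrast was not tested. Leaving out single libraries gave 6 calls without P301S/E4/TREM2-, 9 without P301S/E4/TREM2+, 58 without P301S/EKO/TREM2-, 11 without E4/TREM2- and 4 without E4/TREM2+. The authors' deposited markers of the MHCII cluster, chosen on these libraries, fell in 11 of 33 tested and rose in 0, with a median of -0.82.

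Between P301S/E4 and P301S/EKO members 2 genes were called (0.276%). Apoe had 743 CPM in P301S/E4 members without TREM2 and 1087 CPM in those with it, and was at 0 UMIs in both P301S/EKO libraries. Ifi203 fell by 2.29, with 192 and 32.2 CPM in P301S/E4 against 841 and 343 CPM in P301S/EKO, from 8 and 13 UMIs in P301S/EKO. The 15 and 28 members of the P301S/EKO libraries limit this comparison.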

How the data were processed

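PU.1-sorted nuclei were profiled with 10x Genomics chemistry. Per the file headers, the authors deposited raw UMI counts from Cell Ranger 3.0.1, and per the labels the genome build was mm10. In the authors' deposited marker table, the fold changes are a score whose base is not given in the sources used here, and it was read only for marker names. Nuclei were gated on UMIs and summed per library and class. Levels are CPM, a gene's share of the UMIs of a class in a library scaled to 1000000. The 14 rule genes were left out of every fit.

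Sums were tested with edgeR 4.0.16 (R 4.3.3, limma 3.58.1), with TMM scaling, filterByExpr, the quasi-likelihood F test and Benjamini-Hochberg adjustment over all genes tested, at 0.05. Comparisons of classes kept the library as a block, which the shared library of both classes gives, and used libraries with at least 10 nuclei of each. The genotype fit was additive. Alternatives were RLE scaling, no filter, DESeq2 1.42.0, no block, other gates, and leaving out each library; leaving out B-list or neuron-gated nuclei and the permutation test of the share were added after seeing the data. Thinning used 500 UMIs. Members were also clustered with scanpy 1.11.5 and leidenalg 0.10.2. Neuron-gated nuclei had at least 20 UMIs of the neuron list and more UMIs of it than of the microglia list. On data simulated for members against class II-negative nuclei (9517 genes), 63.5% of genes changed by 2 on the log2 scale were recovered and 17.7% of those changed by 1.

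Text names, per class comparison, the 12 highest and 12 lowest called genes with at least 50 UMIs and 1 direction in every library, per genotype contrast the 6 highest and 6 lowest, and listed genes. The members and lists were chosen with earlier results of these data known. Locations are from GENCODE vM21. Ifi30 and Clec7a were not analysed here, and some genes that the naming rule takes are not reported here.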

Additional observations from a re-analysis of the deposited data

Results flagged for a closer look

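The share of members in TREM2- relative to TREM2+ went in opposite directions between backgrounds. The ratio was 0.688 in P301S/E4 and 0.380 in P301S/EKO, both lower in TREM2-, and 1.72 in E4, higher in TREM2-. Each ratio rests on 1 library against 1, and the difference between backgrounds was not tested. After thinning to 500 UMIs the ratios were 0.883, 0.432 and 2.61, in the same order of backgrounds. At 5 or more class II UMIs the P301S/E4 ratio was 1.09, and the part that depth plays was not tested.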

How the results depend on the processing

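The call counts moved with the processing, and the cause was not tested except where fewer nuclei or genes entered by construction. Members against class II-negative nuclei gave 217 calls, 436 without a filter, 113 with DESeq2, 98 with no replicate block, 20 at 1000 to 3000 UMIs, and 103 to 240 leaving out 1 library. Against class II nuclei with the Lpl programme the 1 call became 8 without a filter, 0 with DESeq2 (14 at an unadjusted p under 0.05), 0 with no replicate block (104 unadjusted), 5 at 5 or more class II UMIs, 2 without high-UMI nuclei, and 0 to 2 leaving out 1 library. Against border-associated macrophage-gated nuclei the 145 calls became 221 without a filter, 78 with DESeq2, 69 with no replicate block, 81 at 5 or more class II UMIs, 263 without high-UMI nuclei, and 95 to 139 leaving out 1 library. Marker-poor against marker-rich members gave 27 calls without a filter, with Malat1 reversed to -0.32, 1 with DESeq2, 17 without high-UMI nuclei and 0 to 71 leaving out 1 library; at 5 or more class II UMIs it was not run, as 1 library remained.

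For TREM2- against TREM2+ members the 4 calls became 0 with DESeq2, at 5 or more class II UMIs and without high-UMI nuclei (4, 25 and 43 unadjusted), 1 without B-list nuclei and 0 to 7 leaving out 1 library. For P301S/E4 against E4 the 37 calls became 7 without a filter, 6 with DESeq2, 10 at 5 or more class II UMIs and 4 to 58 leaving out 1 library. For P301S/E4 against P301S/EKO they became 1 with DESeq2 and 0 to 4. Of named genes under alternatives, 1054 values kept direction and side of the threshold, 347 kept direction only and 1 reversed. The genotype fit holds background as a term, which pairs TREM2- with TREM2+ libraries.

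Member shares at 2 or more class II UMIs were 4.18% in P301S/E4/TREM2-, 6.06% in P301S/E4/TREM2+, 0.614% in P301S/EKO/TREM2-, 1.48% in P301S/EKO/TREM2+ and 1.97% in E4/TREM2-. At 5 or more they were 0.899%, 0.824% and, in P301S/EKO/TREM2+, 0.363%. Thinned to 500 UMIs, the P301S/E4/TREM2- share was 1.44%, P301S/E4/TREM2+ 1.63%, P301S/EKO/TREM2+ 0.503% and E4/TREM2+ 0.556%. With 500 or more detected genes it was 3.16% in P301S/E4/TREM2+ and 0.429% in E4/TREM2+, and with 0 border UMIs 1.06% in E4/TREM2-. The marker-poor share in P301S/E4/TREM2- was 28.3% thinned, 9.22% at 2 or more class II UMIs, 8.24% at 500 genes and 7.09% at 0 microglia UMIs. In P301S/E4/TREM2+ it was 25.8% thinned, 15.7% at 5 or more, 1.80% at 500 genes and 3.07% at 0 microglia UMIs. At 500 genes the marker-poor members were 0 of 4 in P301S/EKO/TREM2-, 0 of 21 in P301S/EKO/TREM2+ and 0 of 24 in E4/TREM2-. They were 2 of 5 (40%) in E4/TREM2+. In E4/TREM2- the share was 28.3% thinned and 2.99% at 0 microglia UMIs. In E4/TREM2+ it was 4.88% at 0 microglia UMIs. Over all members it was 26.4% thinned, 9.70% at 2 or more, 20% at 5 or more, 4.4% at 500 genes and 4.76% at 0 microglia UMIs.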

Other observations

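The members were not of one kind. Grouped among themselves with the rule genes left out, they formed 10 sub-clusters, described here by their leading genes and without tests. Sub-cluster 8 (18 nuclei, 10 of them from P301S/E4/TREM2-) was led by Mgl2, Fxyd5, mt-Co1, H2-DMa and Ahnak. The mitochondrial genes mt-Co1 (7149 against 1098 CPM in other members) and mt-Co2 (5170 against 884 CPM) were among its leading genes, as was Lgals1. Sub-cluster 8 held the most class II message, 60637 CPM, and the least microglia message, 3255 CPM. Its monocyte list summed to 4213 CPM and its conventional dendritic cell list to 3894 CPM. Sub-cluster 7 (26 nuclei, 18 of them from P301S/E4/TREM2-) was B cell-like, led by Igkc, Ighg1, Ebf1 and H2-Ob, with 12 B cell markers raised. Sub-cluster 9 (17 nuclei) was led by Cxcl9, Cxcl10, F830016B08Rik and Iigp1 and held 13664 CPM of the interferon list. Of its nuclei, 0 came from E4/TREM2- or E4/TREM2+.

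Sub-clusters 0 and 2, with 67 and 65 nuclei, both had Ms4a7 among their leading genes. These were Dab2, Stab1, F630028O10Rik, Wwp1, Ms4a7 and Maf in sub-cluster 0, and Ms4a7, Arhgap15, Lilra5 and Cxcl16 in sub-cluster 2. Of sub-cluster 2, 29 nuclei came from E4/TREM2- and 20 from E4/TREM2+, and the border-associated macrophage list beyond the rule summed to 2111 CPM there and to 2250 CPM in sub-cluster 0. Sub-cluster 1 (67 nuclei, 48 from P301S/E4/TREM2+) was led by Tnfsf8, Spp1, Ly86, Rapgef5, Sall1 and Cst7 and had 36.7 CPM of that border list. Sub-clusters 3 to 6 held 4930 to 9438 CPM of the microglia list. This was not particular to them, as sub-clusters 1, 2 and 9 held 6754, 5837 and 6535 CPM. Sub-cluster 0 held 4732 CPM and the B cell-like sub-cluster 7 held 4561 CPM. A sub-cluster mostly of 1 library cannot be told apart from that library.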
